A study of Rattus rattus with 8 samples.

Results

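The ATF4 branch of the integrated stress response was examined through 9 genes, Atf4, Ddit3, Trib3, Asns, Chac1, Psat1, Phgdh, Shmt2 and Fgf21, chosen by symbol. All 9 of these symbols were found among the 16945 genes named on the array, on 33 features, and all 9 were among the 10944 genes measured well enough to be tested. Livers came from 8 male rats of the WH strain, which the labels assign to Rattus rattus. The 4 control rats ate diet without the compound (0 ppm) and the 4 treated rats ate diet with 2500 ppm sodium phenobarbital (NaPB), both for 7 days. NaPB is an antiepileptic barbiturate and, in hepatocytes, an indirect activator of the nuclear receptor CAR. Each liver was hybridised to its own single-colour (Cy3) Agilent array, without pooling, and precision is limited by the number of arrays.

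ATF4 is a transcription factor whose protein is made when the translation initiation factor eIF2 is phosphorylated, an event set off by kinases that sense a shortage of amino acids, unfolded protein in the endoplasmic reticulum, double-stranded RNA or lack of heme. The factor switches on genes for making and importing amino acids, for serine and folate metabolism and, under longer stress, for cell death. Because much of this control acts on translation, the level of Atf4 mRNA is only a part of the activity of the pathway. In liver the same response can raise FGF21, a hormone that acts on energy metabolism.

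Levels are given as scaled intensity, in which 1 is the 75th percentile of the named features of an array and 0.03 is the floor set for low values. A gene's level is the geometric mean of its features. No feature of the 9 genes lay at the floor on any array. A change is the NaPB mean minus the control mean of log2 scaled intensity ± SE of the difference, with 4 rats per group, and a gene passes where its p from limma, adjusted by Benjamini-Hochberg over all genes tested, is under 0.05. Rats are named by their replicate number within a diet, and nothing in the labels says that rats were matched between diets. Arrays of the control group correlated at r between 0.993 and 0.994 over the named features, the NaPB arrays among themselves at 0.989 to 0.992 and control with NaPB arrays at 0.985 to 0.989. Cyp2b2, a P450 gene that phenobarbital is known to induce through CAR, was between 4.41 and 6.49 in the control rats and between 111 and 138 in the NaPB rats. The hepatocyte markers Alb, Apoa1, Ttr, Serpina1 and Cyp2e1 lay above the floor on every array, with a summed scaled intensity of 940 to 1012 in control and 774 to 884 in NaPB livers. Of these 5 markers 1 fell, Cyp2e1 (-0.65 ± 0.07, adjusted p = 0.00104), and none rose. Over all tested genes 4.29% fell and 6.16% rose. In whole liver, fewer cells of a type and less RNA per cell cannot be told apart.

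Psat1, Asns, Trib3 and Ddit3 rose with NaPB, none of the 9 genes fell, and Atf4, Phgdh, Chac1, Shmt2 and Fgf21 did not pass the test. At an unadjusted p under 0.05 in limma, 6 rose and none fell, beside 1570 and 1367 of the 10944 genes tested. The share of 4 of 9 stands beside 6.16% of all tested genes that rose, 4.29% that fell and 10.5% that changed in either direction. The median change of the 9 genes was 0.43 on the log2 scale, against 0.0015 over all genes tested. In 5 of the 9 genes every NaPB rat lay above every control rat, and among all tested genes such upward separation was seen in 10.8%. At the level of single features, 7 of 33 rose and none fell, beside 5.73% of all tested features that rose. Atf4 and Fgf21 have 10 features each, none of which passed, and the 7 belong to Psat1, Asns, Trib3 and Ddit3. Features of a gene are not independent, so this share depends on how many each gene has. The 9 genes were selected with earlier results of the same arrays known, so the shares describe them and are no test of the group. Counted among the tested genes by the size of the rise, Psat1 ranked 51, Asns 68, Phgdh 89 and Trib3 92 of 10944.

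**Figure D1:**
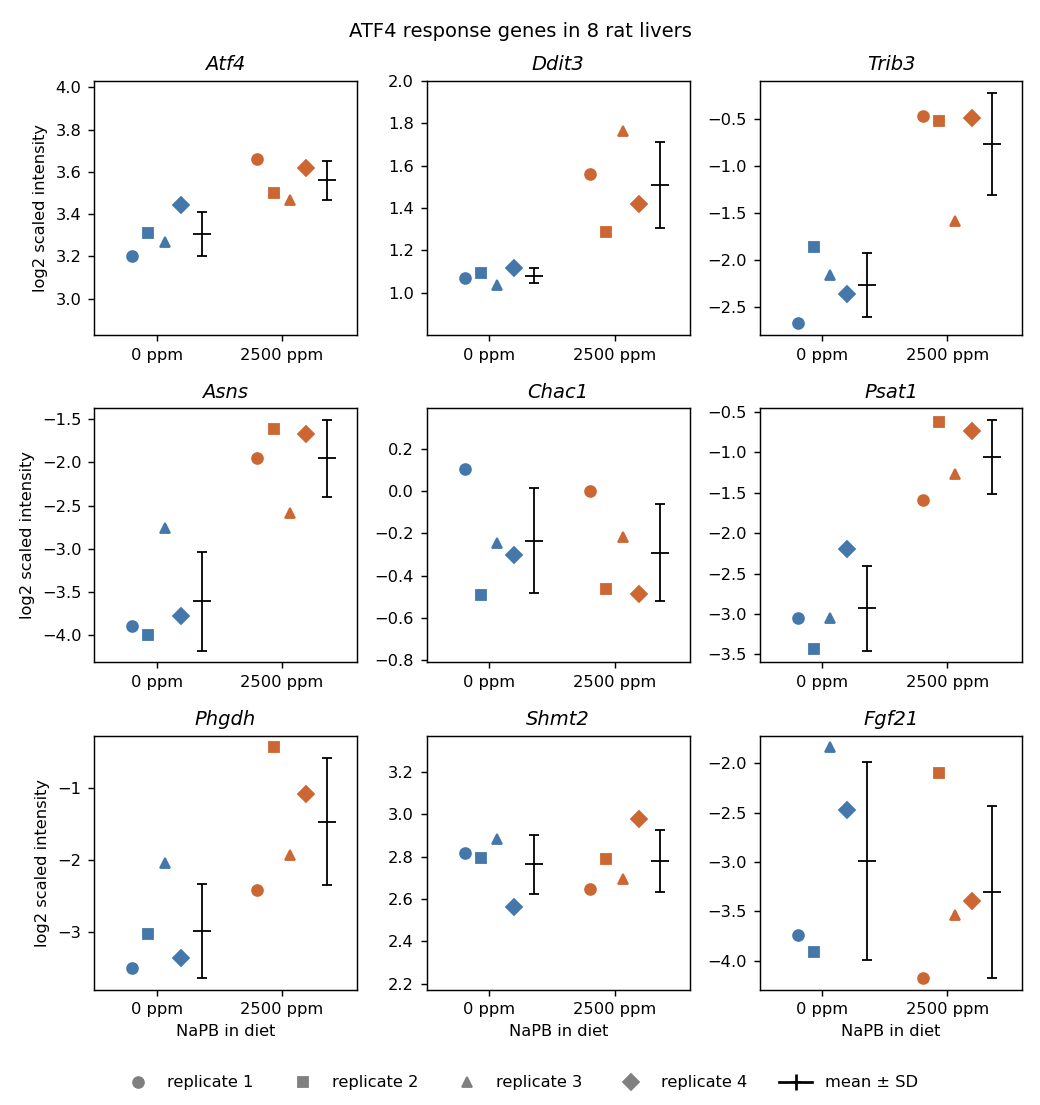
Log2 scaled intensity of the 9 genes in each of the 8 livers, by NaPB in the diet, with 1 symbol per rat and the mean ± SD of each group beside the points. Each panel has its own vertical range. The groups do not overlap for Atf4, Ddit3, Trib3, Asns and Psat1, and they overlap for Chac1, Phgdh, Shmt2 and Fgf21.

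Atf4, the transcription factor at the head of the branch, had a scaled intensity of 9.19, 9.92, 9.64 and 10.9 in control replicates 1 to 4 and of 12.6, 11.3, 11.1 and 12.3 in NaPB replicates 1 to 4. All NaPB rats lay above all control rats, but the lowest NaPB rat (11.1) and the highest control rat (10.9) were close. The change was 0.25 ± 0.08, or 1.19-fold with a 95% interval of 1.05 to 1.36, and it did not pass (adjusted p = 0.0858). Its 10 features changed by 0.18 to 0.35, and none of them passed on its own. In 7 of these 10 features the groups did not overlap, beside 10.3% of all tested features that separated upward. The 10 features differed little on an array, with a median SD of 0.058 on the log2 scale. They measure the same gene in the same rats, so the 7 are not independent observations and add no support to the gene's change.

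Ddit3 encodes CHOP, a transcription factor of prolonged stress that can lead to cell death. Its scaled intensity was 2.10, 2.14, 2.05 and 2.17 in the control rats and 2.95, 2.44, 3.40 and 2.67 in the NaPB rats. Control rats were nearly alike, all NaPB rats lay above them, and NaPB replicate 3 was the highest. The rise was 0.43 ± 0.10, or 1.35-fold (95% interval 1.14 to 1.59, adjusted p = 0.0354), and 1 of its 2 features passed. The call was narrow: it ended with any rat left out other than NaPB replicate 2 (adjusted p between 0.0513 and 0.0842), and with arrays brought to the same median it was at 0.37 (adjusted p = 0.0708). It was also lost with the brightest feature alone (0.38, adjusted p = 0.0676) and with no filter on low values (adjusted p = 0.0764).

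Trib3 encodes a pseudokinase that ATF4 and CHOP induce and that restrains Akt signalling. Its scaled intensity was 0.157, 0.275, 0.223 and 0.194 in the control rats and 0.724, 0.698, 0.334 and 0.714 in the NaPB rats. In the NaPB group 3 rats were almost equal and replicate 3 lay well below them, yet above every control. The rise was 1.50 ± 0.27, or 2.84-fold (95% interval 1.85 to 4.36, adjusted p = 0.0113). Its 2 features agreed, at 1.47 and 1.54, and both passed. With NaPB replicate 3 left out the change was 1.78 (adjusted p = 0.00222), and the call held with each of the other rats left out. With no filter on low values, so that all 16945 named genes were tested, it missed the threshold (adjusted p = 0.0534).

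Chac1, which breaks down glutathione and is a common marker of ATF4 activity, did not separate the diets. It was measured by a single feature. The control rats had a scaled intensity of 1.07, 0.711, 0.843 and 0.811 and the NaPB rats 0.999, 0.726, 0.859 and 0.714. Both groups spanned nearly the same range. The change was -0.06 ± 0.15 (adjusted p = 0.838), with a 95% interval of 0.756-fold to 1.22-fold.

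Amino acid synthesis held the largest changes of these genes. Asns encodes asparagine synthetase, which ATF4 induces when amino acids run short. Its scaled intensity was 0.0674, 0.0626, 0.148 and 0.0728 in the control rats and 0.259, 0.327, 0.167 and 0.314 in the NaPB rats. Control replicate 3 was high within its group and NaPB replicate 3 was low within its own, and these rats nearly met. The rise was 1.65 ± 0.31, or 3.15-fold (95% interval 1.94 to 5.09, adjusted p = 0.0125), with features at 1.41 and 1.89 that both passed. The call held with each rat left out in turn, with changes between 1.52 and 1.94. The control levels were only 2.09 to 4.93 times the floor, and on the scale of log2 of intensity plus 0.1 the rise was 0.96 (adjusted p = 0.00979). With no filter on low values the call was lost (adjusted p = 0.0574).

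Psat1, the aminotransferase of the middle step of serine synthesis, had the largest rise of the 9 genes. The control rats had a scaled intensity of 0.121, 0.0926, 0.120 and 0.219 and the NaPB rats 0.332, 0.650, 0.416 and 0.602. Every NaPB rat lay above control replicate 4, the highest control. The rise was 1.88 ± 0.29, or 3.68-fold (95% interval 2.32 to 5.84, adjusted p = 0.00574). Its features gave 1.85 and 1.91, and both passed. The call held with each rat left out in turn, with changes between 1.71 and 2.13, and under every other setting tried (adjusted p up to 0.0360). The control levels were 3.09 to 7.30 times the floor. On the scale of log2 of intensity plus 0.1 the rise was 1.32 (adjusted p = 0.00452).

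Phgdh, the dehydrogenase that commits a glycolytic intermediate to serine, had a mean change close to that of Trib3 but a wider spread. Its scaled intensity was 0.0888, 0.123, 0.243 and 0.0975 in the control rats and 0.188, 0.742, 0.264 and 0.472 in the NaPB rats. NaPB replicate 1 lay below control replicate 3, so the groups overlapped, while NaPB replicate 2 was the highest of all 8 livers. The change was 1.52 ± 0.46, or 2.86-fold with a 95% interval of 1.39 to 5.88, and it did not pass (adjusted p = 0.0707). Without control replicate 3 it was 1.83 and passed (adjusted p = 0.0456), and so it did without NaPB replicate 1 (1.83, adjusted p = 0.0423). Without NaPB replicate 2 it was 1.17 (adjusted p = 0.128).

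Shmt2, the mitochondrial enzyme that turns serine into glycine and feeds folate metabolism, did not separate the diets. It had a scaled intensity of 7.04, 6.94, 7.39 and 5.91 in the control rats and of 6.27, 6.92, 6.48 and 7.89 in the NaPB rats. The ranges overlapped, with a control rat the lowest of all 8 and an NaPB rat the highest. The change was 0.01 ± 0.10 (adjusted p = 0.950), and the 95% interval of 0.859-fold to 1.19-fold lay wholly below the interval of Psat1. The sign of this value turned with arrays brought to the same median (-0.05).

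Fgf21, the secreted hormone among the 9 genes, varied widely between rats of one diet, and the diets overlapped. Its scaled intensity was 0.0752, 0.0665, 0.280 and 0.180 in the control rats and 0.0554, 0.235, 0.0859 and 0.0949 in the NaPB rats. Control replicates 3 and 4 and NaPB replicate 2 were high and the other 5 rats were low. The change was -0.31 ± 0.55 (adjusted p = 0.754), with a 95% interval from 0.337-fold to 1.92-fold. The highest rat exceeded the lowest 4.21-fold among controls and 4.24-fold among NaPB rats. The 10 Fgf21 features of an array had a median SD of 0.14 on the log2 scale, whereas rats of one diet had an SD of 0.94. All 10 features lay between -0.53 and 0.03 and none passed.

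**Figure D2:**
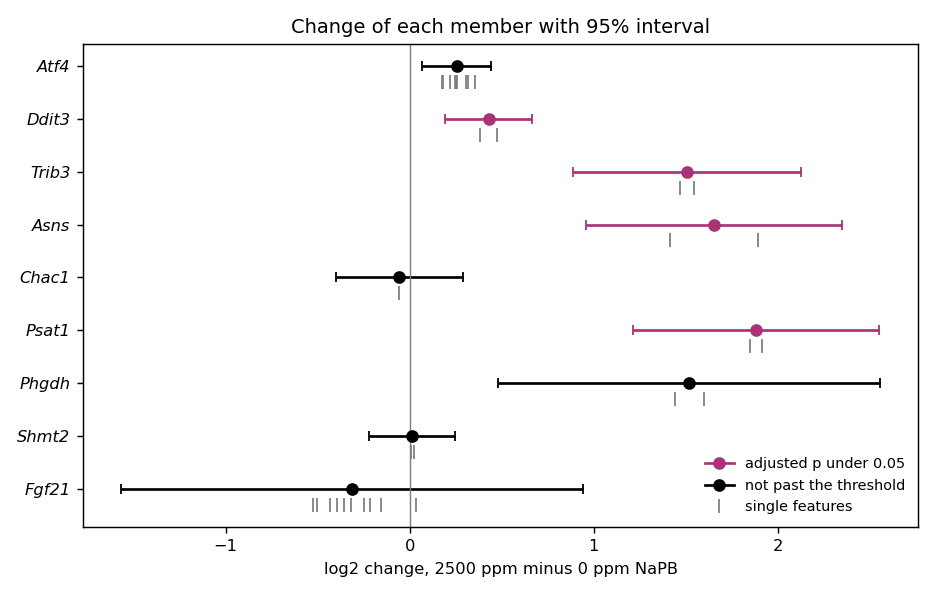
Log2 change of each gene, 2500 ppm minus 0 ppm NaPB, with its 95% interval from limma (circles and bars) and the change of each of its single features (grey ticks), 4 rats per group. Psat1, Asns, Trib3 and Ddit3 are past the threshold, Phgdh has a mean near that of Trib3 with a wider interval, and Chac1, Shmt2 and Fgf21 have intervals that hold 0.

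The genes also differed in how much rats of one diet varied. The SD within a diet, pooled over both, was 0.94 for Fgf21, 0.78 for Phgdh, 0.51 for Asns, 0.49 for Psat1 and 0.46 for Trib3. These lay at percentiles 99.3, 98.8, 95.9, 95.3 and 94.4 of all tested genes. Atf4, with 0.097, lay at percentile 17.2. Among the controls, replicate 3 had the highest level of Asns, Phgdh, Shmt2 and Fgf21. Among the NaPB rats, replicate 2 had the highest level of Asns, Psat1, Phgdh and Fgf21, and replicate 3 had the lowest level of Atf4, Trib3 and Asns but the highest of Ddit3. The order of rats within a diet was therefore not the same for all of these genes, and with 4 rats per diet no correlation between genes was computed.

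**Figure D3:**
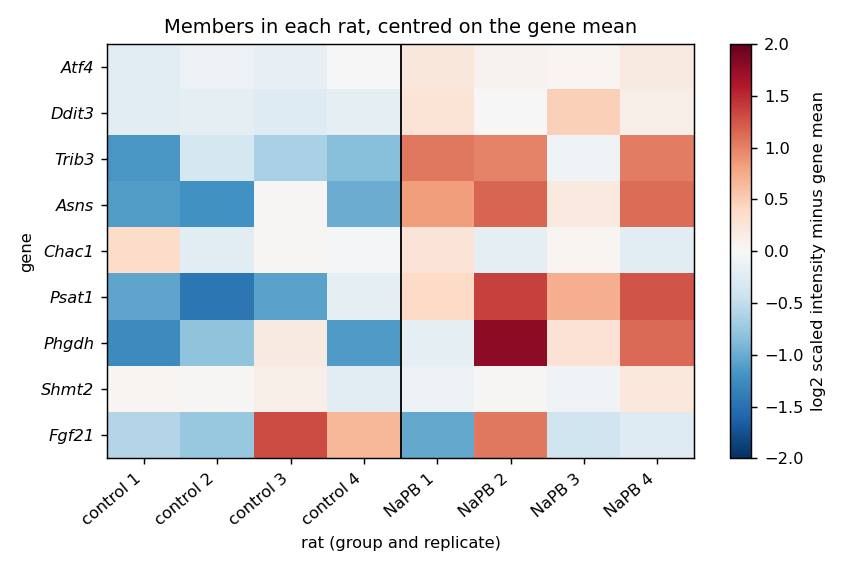
Log2 scaled intensity of the 9 genes in each rat, minus the mean of the gene over all 8 rats (colour, from -2 in blue to 2 in red), controls left of the line and NaPB rats right of it. Trib3, Asns and Psat1 turn from blue to red between the diets, except near 0 for Trib3 in NaPB replicate 3 (-0.07) and Asns in control replicate 3 (0.02). Fgf21 is red in control replicates 3 and 4 and NaPB replicate 2.

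The genes that signal to ATF4 were called at about the share of all tested genes. The list held 12 measured genes for the eIF2 kinases, eIF2, its exchange factor eIF2B and the phosphatase subunits that reverse the response. Of these 1 rose and none fell, beside 6.16% and 4.29% of all tested genes, with a median of 0.10. At an unadjusted p under 0.05 in limma 3 rose and 2 fell, beside 1570 and 1367 of the 10944 genes tested. The riser was Eif2s1, the subunit of eIF2 that the kinases phosphorylate, at 0.33 ± 0.07 (adjusted p = 0.0243), from a scaled intensity of 4.57 to 5.73. Its call ended when control rat 2 or 4, or NaPB rat 2 or 3, was left out (adjusted p reaching 0.0755) and with arrays at the same median (0.0517). In all, 2 of the 10 other settings with all rats kept lost the call of Eif2s1 (adjusted p reaching 0.0865). Eif2ak3, which encodes the kinase PERK of the endoplasmic reticulum, was at 0.29 ± 0.16 (adjusted p = 0.297), and at 0.15 without NaPB replicate 3. Eif2ak4, which encodes GCN2, the sensor of amino acid shortage, was at 0.02 ± 0.11 (adjusted p = 0.920), a value whose sign turned with quantile normalization and with arrays at the same median. Ppp1r15a, which encodes the phosphatase subunit GADD34 that ATF4 and CHOP induce, was at 0.24 ± 0.11 (adjusted p = 0.196).

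Of 6 transcription factors that act beside ATF4, 1 rose and 1 fell, beside 6.16% and 4.29% of all tested genes. Atf3, a stress-induced repressor and ATF4 target, had a scaled intensity of 0.0575, 0.0857, 0.0861 and 0.0595 in the control rats and 0.186, 0.214, 0.0969 and 0.189 in the NaPB rats. As with Trib3, NaPB replicate 3 was the low rat of its group, and the groups did not overlap. The rise was 1.21 ± 0.26 (adjusted p = 0.0212), a call that ended when control rat 1, or NaPB rat 1, 2 or 4, was left out (adjusted p reaching 0.0583), with the brightest feature alone (1.04, adjusted p = 0.0643), with no filter (0.0824) and with a floor of 0.1, where it was 0.72 (0.0555). Atf5, a related factor that is translated under the same control, fell by 0.91 ± 0.18 (adjusted p = 0.0168). It went from 14.1, 13.0, 17.9 and 15.8 in the control rats to 9.24, 9.93, 5.65 and 8.12 in the NaPB rats, without overlap. With no filter that call was lost (adjusted p = 0.0644). In all, 2 of the 10 other settings with all rats kept lost it (adjusted p reaching 0.0719). Cebpb, which encodes a partner of ATF4 on DNA, was at 0.04 ± 0.16 (adjusted p = 0.890), with the opposite sign under scaling to a common median.

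Among 24 other listed targets of ATF4, 17 were measured, of which 4 rose, 1 fell and 12 did not pass, with a median of 0.16. Over all tested genes 6.16% rose and 4.29% fell. The largest rise was that of Gdf15, a hormone of cell stress, from a scaled intensity of 0.205, 0.279, 0.239 and 0.253 in the control rats to 0.581, 0.648, 1.06 and 0.841 in the NaPB rats. The rise of 1.65 ± 0.19 (adjusted p = 0.00133) was close to that of Asns, but NaPB replicate 3, low for Asns, was the highest rat for Gdf15. Eif4ebp1, an inhibitor of cap-dependent translation, rose by 0.56 ± 0.10 (adjusted p = 0.0115). Slc3a2, the shared heavy chain of several amino acid exchangers, rose by 0.50 ± 0.12 (adjusted p = 0.0346), a call lost with any rat left out other than rat 3 of either group (adjusted p reaching 0.0943) and with no filter (0.0876). Pycr1, an enzyme of proline synthesis named here after its value was seen, rose by 0.49 ± 0.12 (adjusted p = 0.0326), and 8 of its 16 feature values in control rats were at the floor. Its call ended when rat 1, 2 or 4 of either group was left out (adjusted p reaching 0.0911) and with no filter (0.0811), and its brightest feature alone rose by 0.95. The exchanger gene Slc7a11 and the importer gene Slc7a5 were among 5 targets named on the array that lay too near the floor to be tested.

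The serine, glycine and folate genes around Psat1, Phgdh and Shmt2 moved both ways. Of 14 measured, 3 rose and 4 fell, beside 6.16% and 4.29% of all tested genes, with a median of -0.15. Psph, the phosphatase that completes serine synthesis after Psat1, fell by 0.54 ± 0.14 (adjusted p = 0.0398). Its scaled intensity was 0.463, 0.451, 0.557 and 0.388 in the control rats and 0.310, 0.383, 0.267 and 0.316 in the NaPB rats. These groups only just failed to overlap, and the call was lost with any rat left out other than control rat 4 or NaPB rat 2 (adjusted p reaching 0.0899) and with no filter (0.109). Mthfd2, the mitochondrial folate enzyme next to Shmt2, was at 0.44 ± 0.15 (adjusted p = 0.0910), close to the floor, and at 0.02 with a floor of 0.1.

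Tyms, which makes thymidylate for DNA, rose by 1.14 ± 0.15 (adjusted p = 0.00239; 0.76 on the scale of log2 of intensity plus 0.1), and Aldh1l1, which oxidises formyl folate in the cytosol, rose by 0.94 ± 0.09 (adjusted p = 0.000557). Aldh1l1 went from 24.3, 24.9, 22.7 and 20.8 in the control rats to 46.9, 47.8, 41.0 and 42.3 in the NaPB rats, with a wide gap between the groups. Gnmt, which methylates glycine and regulates S-adenosylmethionine, fell by 0.73 ± 0.15 (adjusted p = 0.0185), lost without control replicate 2 (adjusted p = 0.0527) and with no filter (0.0647). The other 3 that passed were named after their values were seen. Gcat, which handles threonine-derived glycine, rose by 0.53 ± 0.11, Mat1a, which makes S-adenosylmethionine, fell by 0.51 ± 0.10, and Cbs, which joins serine to homocysteine, fell by 0.47 ± 0.09. The call of Gcat ended when control rat 2 or NaPB rat 4 was left out (adjusted p reaching 0.0655) and with no filter (0.0590). That of Cbs was lost under 1 of the 10 other settings with all rats kept (adjusted p = 0.0613). For Cbs 2 control and 3 NaPB feature values were at the floor.

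Markers of dividing cells were measured in the same livers. All 8 of them (Mcm2, Mcm5, Pcna, Ccnb1, Top2a, Cdk1, Ccna2 and Birc5) rose with NaPB, and their summed scaled intensity was 1.21 to 1.33 in the control rats and 2.78, 4.41, 3.40 and 2.63 in NaPB replicates 1 to 4. In each of the 4 control rats Mcm5, Ccnb1 and Top2a were at the floor. Within the NaPB group replicate 2 was highest for the sum, Psat1 and Phgdh. Replicate 4 was next highest for Psat1 and Phgdh and had the lowest sum. The part of dividing cells in the rises of Psat1 and Tyms was not tested, and the order of 4 rats cannot decide it. Of the 4 bile duct markers tested 1 rose, Epcam, an adhesion protein of epithelial cells named after its value was seen, 3.04-fold (adjusted p = 0.000159), from a scaled intensity of 0.227 to 0.279 over the control rats to 0.619 to 0.848 over the NaPB rats. Krt7 (0.85 ± 0.36, adjusted p = 0.172), Krt19 (0.35 ± 0.23, adjusted p = 0.359) and Spp1 (0.18 ± 0.23, adjusted p = 0.663) did not pass, and the sum over 5 was 0.365 to 0.451 in control and 0.855 to 1.03 in NaPB livers. For Krt7 6 control and 5 NaPB feature values were at the floor, and for Spp1 25 and 11. The sums of Kupffer cell markers (26.7 to 31.7 in control and 24.1 to 30.2 in NaPB livers) and of lymphocyte markers (0.366 to 0.427 and 0.323 to 0.380) overlapped. Stellate cell markers summed to 7.17 to 11.0 in control and 5.84 to 7.14 in NaPB livers, and endothelial markers to 14.5 to 16.2 and 10.9 to 13.0. In each of these last 4 lists 1 gene fell and none rose. Over all tested genes 6.16% rose and 4.29% fell. Kdr, named after its value was seen, made up most of the endothelial sum, at 12.7 in control and 9.61 in NaPB livers. Pecam1 (-0.02), Lyve1 (-0.001) and Cdh5 (0.06) did not pass. Col3a1, also named after its value was seen, was the largest part of the stellate sum, at 5.66 and 4.00. Col1a1, Col1a2, Lrat and Des had lower means with NaPB and did not pass.

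Other arms of the stress response were measured in the same livers. None of 16 measured chaperones and factors of the endoplasmic reticulum under XBP1 and ATF6 passed in limma at the adjusted threshold, with a median of -0.06. At an unadjusted p under 0.05 in limma 2 rose and none fell, beside 1570 and 1367 of the 10944 genes tested. Hspa5, which encodes the chaperone BiP and is a standard marker of unfolded protein, was at 42.4, 38.0, 50.8 and 34.6 in the control rats and 38.3, 43.5, 36.2 and 37.4 in the NaPB rats. These values overlapped, with a change of -0.08 ± 0.12 (adjusted p = 0.710). Derl3, a factor that exports misfolded protein for degradation, had the largest change of this list, at 0.74 ± 0.30 (adjusted p = 0.153). Sdf2l1, a part of a chaperone complex of the endoplasmic reticulum named here after its value was seen, came nearest to the threshold, at 0.62 ± 0.17 (adjusted p = 0.0538). The gene was at 5.30, 5.60, 7.53 and 4.28 in the control rats and 8.40, 10.1, 7.23 and 8.73 in the NaPB rats, so that only NaPB replicate 3 and control replicate 3 overlapped. It passed without control replicate 3 (0.77, adjusted p = 0.0196), after quantile normalization (0.0417), with a floor of 0.1 (0.0427), on the scale of log2 of intensity plus 0.1 (0.0416), with a trended and robust prior (0.0420) and with array weights (0.0437). Of 12 measured tRNA synthetases, several of which ATF4 is known to induce, none rose (also none at an unadjusted p under 0.05). Tars, the threonine enzyme gene, was the 1 that fell, by 0.44 ± 0.11 (adjusted p = 0.0404), beside 4.29% of all tested genes. That call was lost with any rat left out other than control rat 4 or NaPB rat 1 (adjusted p reaching 0.0881), with the brightest feature alone (0.0803) and with no filter (0.0938). None of 5 mitochondrial chaperones and proteases passed in limma, nor did any at an unadjusted p under 0.05, and the largest change among them was that of Hspa9, at -0.17 ± 0.12 (adjusted p = 0.394) and at -0.067 without control replicate 3.

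For the FGF21 axis, FGF receptor genes and Ppara were measured in the same livers. Fgfr4, the main FGF receptor of hepatocytes, fell by 0.42 ± 0.09 (adjusted p = 0.0228), from 0.350, 0.375, 0.357 and 0.398 in the control rats to 0.304, 0.273, 0.243 and 0.291 in the NaPB rats, without overlap. That call ended when control rat 2 or 4, or NaPB rat 2, was left out (adjusted p reaching 0.0657). It was also lost under 1 of the 10 other settings with all rats kept (adjusted p = 0.0657). Fgfr3 fell by 0.55 ± 0.14 (adjusted p = 0.0374), a call lost with any rat left out other than NaPB rat 2 or 3 (adjusted p reaching 0.0864) and with no filter (0.102). The remaining 3 of the 5 measured genes of this list did not pass, and none rose, beside 6.16% of all tested genes that rose and 4.29% that fell. They were Fgfr1, Fgfr2 (-0.34 ± 0.20, adjusted p = 0.313) and Ppara (-0.06 ± 0.24, adjusted p = 0.899). Fgfr1 was at -0.25 ± 0.14 (adjusted p = 0.302), with a scaled intensity near the floor, 0.055 in control and 0.046 in NaPB livers. No feature carries the symbol of Klb, the co-receptor, so it was not analysed here.

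**Figure D4:**
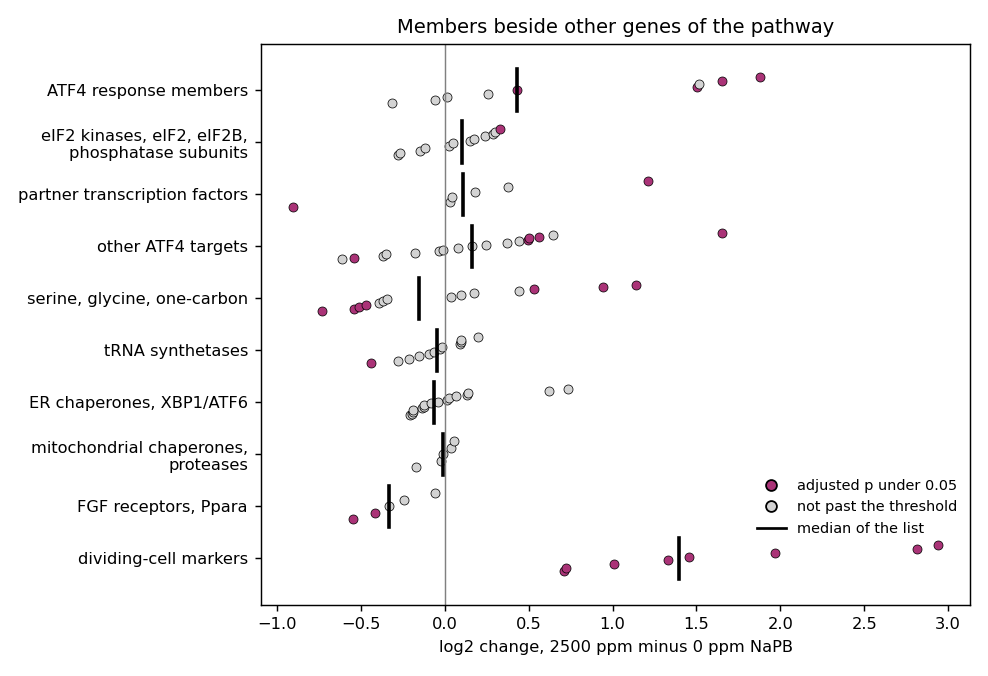
Log2 change of each tested gene in 10 lists, 2500 ppm minus 0 ppm NaPB, with genes past the threshold in purple, the others in grey and the list median as a vertical line. The 9 ATF4 response genes have a median of 0.43, the 16 endoplasmic reticulum genes have a median of -0.06 with none past the threshold and Derl3 (0.74) and Sdf2l1 (0.62) apart from the rest, and all 8 dividing-cell markers are past it, 3 of them with controls at the floor.

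The genes with the most similar profiles were found for each riser as the smallest root mean square difference of log2 profiles over the 8 rats, each centred on its own mean. Closest to Trib3 was Atf3 (0.19 on the log2 scale), followed by RGD1562010 (0.30) and Gstm1 (0.32). Closest to Ddit3 were Tnpo3 (0.060), Dmd (0.071) and Ggps1 (0.082). Stmn1 (0.36), Nol3 (0.36) and Pir (0.38) were closest to Asns, and Mcm3 (0.33), Stmn1 (0.36) and Gins1 (0.38) to Psat1. The values of Ddit3 span a smaller range than those of the other risers, so the distances are not compared between risers. The measure includes the change between diets.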

How the data were processed

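The deposited table held 1 linear spot intensity (Cy3) per feature and array. The 75th percentile of these values over named features was similar on every array, at 1.08 to 1.09. The submitters' processing notes name Agilent Feature Extraction 10.7. Their background subtraction, flagging and scaling are not given in the sources. Of 62976 features, 45904 carried a gene symbol, which was kept as the probe table gives it. The 75th percentile over named features served as divisor for each array, a floor of 0.03 replaced lower values (31.8% to 34.5% of named features), and log2 values were averaged over the features of a gene. Whether features of a gene share a probe sequence is not given there either. A gene had to exceed the floor in 3 or more rats of either diet, and those that did were tested with limma 3.58.1 in R 4.3.3 (lmFit and eBayes, two-sided). The 30504 features that met the same rule were fitted in the same way. The fit was tested on simulated data. Plots used Python 3.11.15 and matplotlib 3.10.9.

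Groups come from the diet dose in the labels. Replicate numbers belong to different animals: deviations of same-numbered rats from their group means correlated between -0.13 and 0.08, so the numbers were not taken as pairs. No slide, date or batch is given in the labels, so none was tested. Named genes were the 9 members, up to 4 genes past the threshold from each list (or the largest change where none passed), a fixed set of pathway genes, and the 3 nearest profiles of each riser. The members and lists were chosen with earlier results of these data known. Alternative settings were other scalings, floors, filters, feature choices and variance models, the replicate number as a block, and leaving out each array.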

Additional observations from a re-analysis of the deposited data

Results flagged for a closer look

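Among 98 groups of 4 rats (49 named genes in 2 diets), 6 held a rat whose gap to the nearest other rat took up more of the group's range than Dixon's 95% critical value allows. Chance flags about 1 in 20 groups of independent values. That rate does not hold for genes named for the likeness of their profiles, here Stmn1, Mcm3, Gins1 and RGD1562010. Nor does it hold for values set to the floor. Of the 18 groups of the 9 ATF4 response genes, only Trib3 in NaPB replicate 3 was flagged, at a scaled intensity of 0.334. The other NaPB rats lay at 0.698 to 0.724. Stmn1, Mcm3 and Gins1 were each high in NaPB replicate 2, at 0.267, 0.406 and 0.258. The other NaPB rats lay at 0.178 to 0.185, 0.233 to 0.254 and 0.150 to 0.151 for these genes. Ephx1, the microsomal epoxide hydrolase, was high in NaPB replicate 4, at 53.7 against 45.7 to 46.0. RGD1562010 was at 0.0308 in control replicate 1, just above the floor of 0.03 at which the other controls lay.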

How the results depend on the processing

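The number of changed genes was 1144, 739 with no filter on low values and 583 with the replicate block, and 625 to 980 with 1 rat left out (698 without control replicate 1 and 625 without control replicate 2). The share of them that rose was 58.9%, 50.2% after quantile normalization and 41.3% with arrays at the same median. Of the 9 genes, 4 passed, 1 with no filter, 2 with the replicate block and 3 or 4 with 1 rat left out. Of their features, 7 passed, 3 with the replicate block and 5 to 8 with 1 rat left out. With no filter, which adds the genes near the floor to the adjustment and to the variance prior, Ddit3 (0.43), Trib3 (1.50) and Asns (1.65) kept their changes and missed the threshold, and Psat1 passed. Ddit3 also missed it with arrays at the same median (0.37) and with the brightest feature (0.38). With the replicate block Ddit3 (0.43, adjusted p = 0.0955) and Asns (1.65, adjusted p = 0.0620) missed it and Trib3 and Psat1 passed. The numbers do not pair the rats, and the block leaves fewer degrees of freedom. With 1 rat left out, Ddit3 lay between 0.34 and 0.50, Phgdh between 1.17 and 1.83, Chac1 between -0.16 and 0.054, Shmt2 between -0.054 and 0.057 and Fgf21 between -0.72 and 0.071. Signs turned for Shmt2 with arrays at the same median (-0.048) and with array weights (-0.016), and for Fgf21 with the brightest feature (0.034). They turned for Eif2ak4 after quantile normalization (-0.0016), with arrays at the same median (-0.038), with the brightest feature (-0.0089) and with 1 rat left out (-0.052 to 0.13), for Cebpb with arrays at the same median (-0.018) and with 1 rat left out (-0.087 to 0.19), and for Hspa5 with 1 rat left out (-0.16 to 0.020). None of these sign changes concerns a gene past the threshold. The cause of these differences between settings was not tested. Signal near the floor limits low genes: with a floor of 0.1 Nol3 went from 1.53 to 0.38 and missed the threshold (adjusted p = 0.0916). At that floor Gins1 went from 1.63 to 0.78, Stmn1 from 1.72 to 1.00, Mcm3 from 1.75 to 1.13 and Asns from 1.65 to 1.23. Psat1 (1.85) and Phgdh (1.46) moved little at that floor. On the scale of log2 of intensity plus 0.1 their changes were smaller, 1.32 for Psat1 and 1.04 for Phgdh, as was that of Trib3 (1.17). Derl3, not past the threshold otherwise, passed with the replicate block (adjusted p = 0.0179). Over the 10 other settings with all rats kept, calls were lost under 1 for Cbs and Fgfr4 and under 2 for Eif2s1, Atf5 and Psph. They were lost under 2 also for Slc3a2, Pycr1 and Fgfr3, under 3 for Tars and under 4 for Atf3.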
